A study of Mus musculus with 8 samples.

Results

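The genes described here encode the receptor of interleukin-33 (IL-33) and its relatives: Il1rl1, Il1rap, Il1r1, Il1r2, Il18r1, Il18rap, Il1rl2, Sigirr and the ligand gene Il33 itself. All open-chromatin peaks whose assigned gene is one of these 9 were taken, which gave 72 of the 104981 peaks in the deposited table and 9 of its 18207 genes. The measurement was ATAC-seq, in which a transposase cuts accessible DNA, on microglia sorted from mouse cortex. Mice at postnatal day 30 had been injected into the cerebral ventricle of one side with IL-33 or with vehicle, and microglia were collected 4 hours later. Each group had 4 libraries, from separate mice of both sexes per the labels. The sources used here name no strain, allele or dose, and no group without an injection was analysed here. The table's columns name the group and a number of their own but not the mouse, so sex was not used.

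The IL-1 receptor family consists of membrane proteins whose cytoplasmic Toll/IL-1 receptor (TIR) domains recruit MyD88 and IRAK kinases and lead to NF-kB and MAP kinase activation. Most ligands bind a private receptor chain first, and the complex then takes up a shared or dedicated accessory chain. IL-33 is an alarmin stored in nuclei and released on tissue damage; its receptor chain is ST2, the product of Il1rl1, and the accessory chain is the product of Il1rap. Mouse Il1rl1 is known to be transcribed from alternative start sites and to give a membrane and a soluble form. In the brain, Il33 is made mainly by astrocytes and oligodendrocytes, and microglia are among the cells that carry ST2.

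Of the 9 genes, 6 form a cluster on chromosome 1, in the order Il1r2, Il1r1, Il1rl2, Il1rl1, Il18r1 and Il18rap. Their 62 peaks lie between 39993377 and 40545002 (mm10), a span of 551.6 kb that holds 1 peak of another gene. Il1rap lies on chromosome 16, Il33 on chromosome 19 and Sigirr on chromosome 7. Il1r2 had 22 peaks, Il1rl1 16, Il1rl2 9, Il1r1 8, Il18r1 and Il1rap 4 each, and Il18rap, Sigirr and Il33 3 each. Of the 72 peaks, 39 were intronic (54.2%, against 46.0% of all peaks), 24 intergenic (33.3% against 31.6%) and 6 in promoters (8.33% against 14.9%). A peak is assigned to the nearest start site, which is no evidence that it acts on that gene: 9 of the Il1r2 peaks lie in introns of Map4k4, the kinase gene next to the cluster.

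Promoter sequences are shown for the genes on which the comparison of promoter and distal peaks turns, and for Il1rl1, which had no peak annotated as promoter. They are the 250 bases before RefSeq start sites (GRCm38.p6, the assembly of mm10), all on the plus strand, 5′ to 3′. Capitals mark matches, on either strand, to an AP-1 (TGANTCA), ETS core (GAGGAA), C/EBP (TTGCNNAA), IRF or NF-kB motif. Of 32851 RefSeq windows of this length, 6.75%, 23.3%, 9.56%, 2.98% and 5.0% held a match to these motifs in that order. Windows were found for 8 of the 9 genes.
Il18rap, chr1:40515112-40515361: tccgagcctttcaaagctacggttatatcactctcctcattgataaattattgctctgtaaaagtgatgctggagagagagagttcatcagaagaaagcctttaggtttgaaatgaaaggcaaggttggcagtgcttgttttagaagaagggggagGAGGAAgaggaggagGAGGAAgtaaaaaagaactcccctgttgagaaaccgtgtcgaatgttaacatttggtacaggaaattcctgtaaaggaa
Il1rap, chr16:26581455-26581704: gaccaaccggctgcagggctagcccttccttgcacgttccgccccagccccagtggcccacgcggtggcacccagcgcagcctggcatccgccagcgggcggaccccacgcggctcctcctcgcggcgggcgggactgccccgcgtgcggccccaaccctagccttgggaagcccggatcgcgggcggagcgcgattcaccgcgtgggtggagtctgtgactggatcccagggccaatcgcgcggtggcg
Il33, chr19:29924863-29925112: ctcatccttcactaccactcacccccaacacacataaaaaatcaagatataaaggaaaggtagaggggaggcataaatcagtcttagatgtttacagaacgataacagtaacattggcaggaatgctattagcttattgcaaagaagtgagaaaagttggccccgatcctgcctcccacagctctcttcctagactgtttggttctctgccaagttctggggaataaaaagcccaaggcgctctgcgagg
Il1rl1, outer of the pair of windows, chr1:40429320-40429569: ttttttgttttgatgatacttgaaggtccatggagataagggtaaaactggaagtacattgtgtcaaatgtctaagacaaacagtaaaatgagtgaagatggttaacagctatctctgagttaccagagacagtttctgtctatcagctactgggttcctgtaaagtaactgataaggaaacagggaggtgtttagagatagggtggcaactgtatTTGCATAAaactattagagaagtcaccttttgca
Il1rl1, inner of the pair, chr1:40439379-40439628: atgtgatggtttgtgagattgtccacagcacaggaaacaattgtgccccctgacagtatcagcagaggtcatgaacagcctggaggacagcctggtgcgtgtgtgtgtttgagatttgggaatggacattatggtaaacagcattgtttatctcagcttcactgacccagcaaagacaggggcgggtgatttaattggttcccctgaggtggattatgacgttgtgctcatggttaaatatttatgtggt
The Il18rap window shares 201 of its bases with the promoter peak that rose (described below with its values), has 42.0% G and C with 4 CpG dinucleotides, and holds 2 adjacent ETS core matches in a purine-rich run. The Il1rap window is a CpG-rich promoter with 74.4% G and C and 30 CpG, a number reached by 5.94% of all windows, whose median was 6; it shares 195 bases with the Il1rap promoter peak and has no motif match. The Il33 window shares 169 bases with the Il33 promoter peak and also has no match. No peak lies over either Il1rl1 window; the outer one has 0 CpG and 1 C/EBP match. A match describes the letters only.

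Levels below are tags per peak, scaled by the authors to 10000000 tags per library; 1 read was worth 0.114 to 0.1395 of these tags. Groups were compared with limma on log2(tags + 1.155), with p-values adjusted by Benjamini-Hochberg over all 94480 peaks past a filter on the lowest 10% of means and a threshold of 0.05. On that scale changes of weak peaks are understated, and the standard error of every log2 change was 0.338, since limma shrank all peaks to a common spread. The smallest adjusted p-values rest on that common spread and should not be read literally; that of the Il1rl1 peak below, for example, was 0.000171 after median-ratio scaling. Of the 72 peaks 66 were tested, and 5 rose (7.58%, against 8.53% of all tested peaks) and 1 fell (1.52%, against 4.99%). Both shares are near or below the background, so the family as a whole did not stand out by its number of changed peaks. The 5 raised peaks belonged to 5 different genes: Il1rl1, Il1rap, Il1r2, Il18rap and Il33. The lowered peak belonged to Il18r1, and no peak of Il1r1, Il1rl2 or Sigirr passed. The median log2 change of the tested peaks was -0.26, against -0.14 for all tested peaks. Of the 72 peaks, 15.3% stand only in the authors' vehicle list, against 8.86% of all peaks. Only in the IL-33 list stand 12.5%, against 18.8%. A place in 1 list alone favours a higher level in that group, so this median is a description.

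Libraries held 35842688 to 43857673 tags. The share of tags inside peaks was 20.8% to 27.9% in vehicle libraries and 14.2% to 31.3% in IL-33 libraries, lowest in IL-33 library 2 and highest in IL-33 library 4. When libraries were rescaled by median ratios, which moved the median log2 change of all tested peaks from -0.14 to -0.05, 11 of the 66 peaks rose (16.7%, background 15.3%) and 6 fell (9.09%, background 10.8%). With edgeR's TMM scaling and quasi-likelihood test, 12 rose (background 16.9%) and 4 fell (background 12.2%); with quantile normalization the counts were 9 (background 13.5%) and 10 (background 12.9%). With libraries scaled to equal sums, 11 rose (background 15.6%) and 6 fell (background 10.4%). As deposited but without IL-33 library 2, 8 peaks rose (background 14.7%). Without IL-33 library 1 or library 4, 3 fell (background 5.66% and 8.36%). The 6 peaks called as deposited each kept their direction in the 17 alternative settings, and 4 of them passed in every setting. In these bulk libraries, more open chromatin per cell and more cells of an open kind cannot be told apart.

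**Figure D1:**
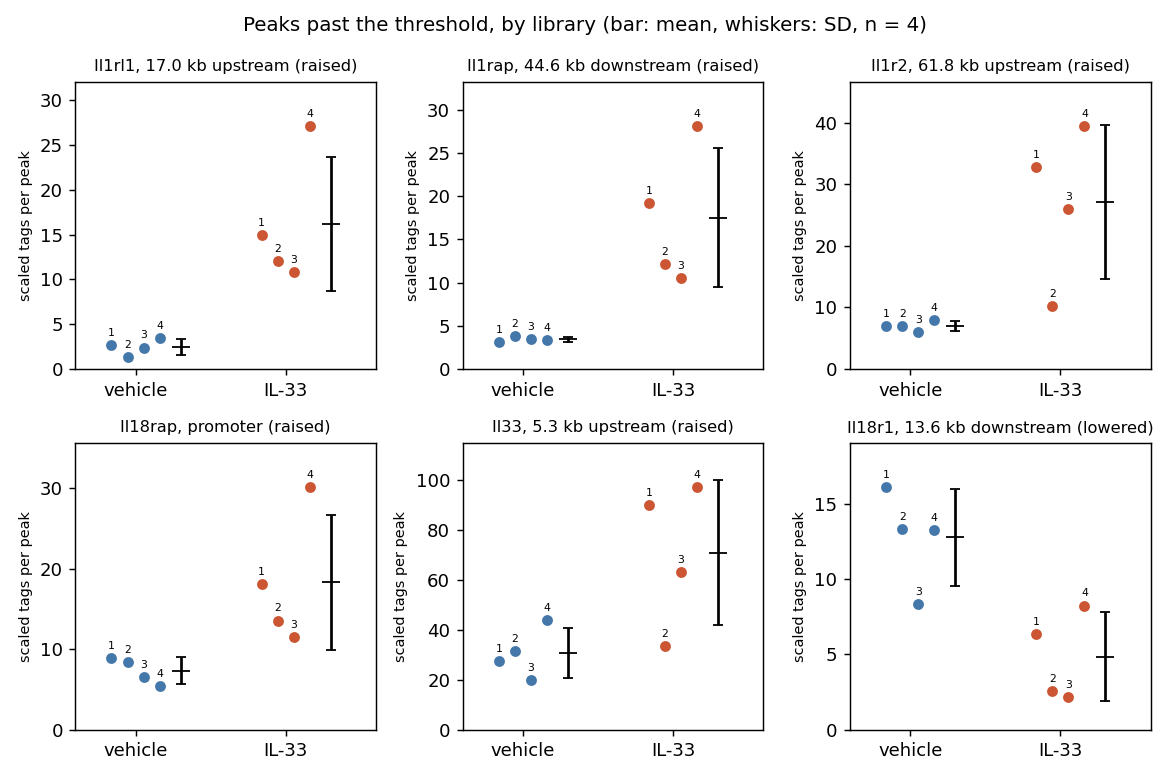
Scaled tags in the 6 peaks past the threshold, in each of 4 vehicle and 4 IL-33 libraries (points, numbered as in the table's columns), with the mean and SD; distances in the titles are from the start site the peak annotation used. In 5 of the peaks the groups do not overlap; in the Il33 peak, IL-33 library 2 (33.36 tags) lies below vehicle library 4 (43.94 tags).

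Among the tested peaks of the family, the largest log2 change was at Il1rl1, the gene of the IL-33 receptor chain ST2. The peak, within an L1_Mus3 LINE repeat (chromosome 1, 40412438 to 40412737), lies 17.0 kb before the start that the peak annotation used, which calls it intergenic, but 7.7 kb past the outermost RefSeq start of Il1rl1 at 40404864. It held 2.69, 1.32, 2.39 and 3.49 tags in vehicle libraries 1 to 4 and 14.91, 12.03, 10.83 and 27.13 tags in IL-33 libraries 1 to 4. Every IL-33 library was above every vehicle library. The mean rose from 2.47 ± 0.90 to 16.2 ± 7.47 tags (SD, n = 4 each; 6.56-fold; log2 change 2.21, limma adjusted p = 4.67e-09), and the authors' lists carry the peak for IL-33 only. It is thus in the peak set only through the group where it is high. That favours a rise, so its p-value, separation of groups and share are descriptions. As a share of all Il1rl1 tags in the same library, which does not depend on the scaling between libraries, it made up 0.588% to 1.63% with vehicle and 5.27% to 9.48% with IL-33. The highest share was in IL-33 library 2, the library with the fewest tags in peaks.

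The neighbours of that peak did not pass the test. The peak 2.5 kb before it, at 19.5 kb by the annotation's start, is the highest of the gene and overlaps an ERVL LTR repeat; it had 55.6 ± 12.1 tags with vehicle and 50.4 ± 21.8 with IL-33 (log2 change -0.25, limma adjusted p = 0.73). The peak 1.3 kb after it had 9.02 ± 2.43 and 10.2 ± 4.09 tags (log2 change 0.11, adjusted p = 0.887). Of the 16 Il1rl1 peaks, 8 lie before the outermost RefSeq start, 1 covers it and 7 lie past it, 6 of which the annotation calls intergenic; 0 are annotated as promoter. The peak over the outermost start is the one at 24.7 kb (chromosome 1, 40404674 to 40404969). It held 41.06, 44.26, 35.46 and 44.50 tags with vehicle and 66.41, 27.59, 48.40 and 75.30 with IL-33, so that 3 IL-33 libraries were above all vehicle libraries and library 2 below them. Its log2 change was 0.30 (limma adjusted p = 0.677), and with median-ratio scaling 0.40 (adjusted p = 0.0362). The only Il1rl1 peak annotated as intronic, 5.3 kb past the start of the inner window shown above, had 4.35, 3.57, 3.65 and 4.74 tags with vehicle and 7.39, 5.54, 4.97 and 14.45 with IL-33. These groups do not overlap, yet the log2 change of 0.72 did not pass as deposited (limma adjusted p = 0.159) and passed with median-ratio scaling (0.80, adjusted p = 0.019). This intronic peak also stands only in the authors' IL-33 list, which favours a rise, so its separation and p-values are descriptions.

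Il1rap encodes the accessory chain shared by the IL-33, IL-1 and IL-36 receptors. Its promoter peak (chromosome 16, 26581510 to 26581716), over the CpG-rich sequence above, carried 83.6% of the gene's tags. It held 127.41, 121.8, 99.18 and 115.23 tags with vehicle and 138.57, 55.29, 85.73 and 139.57 with IL-33, with overlapping groups (log2 change -0.23, limma adjusted p = 0.75). An intronic peak 44.6 kb downstream (26626182 to 26626406) held 3.07, 3.83, 3.42 and 3.35 tags with vehicle and 19.25, 12.14, 10.57 and 28.14 with IL-33. It rose from 3.42 ± 0.31 to 17.5 ± 8.02 tags (5.13-fold; log2 change 1.94, limma adjusted p = 4.67e-07) and, like the Il1rl1 peak, stands only in the authors' IL-33 list. The limit given for the Il1rl1 peak therefore holds for this peak too. It made up 2.23% to 3.14% of the gene's tags with vehicle and 9.64% to 16.1% with IL-33.

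Another intronic Il1rap peak, 20.1 kb downstream and in an Lx4B LINE repeat, was left out by the filter on low means. It held 0, 0.26, 0.91 and 2.37 tags with vehicle and 9.69, 2.95, 8.41 and 7.99 with IL-33, again without overlap. With no filter its log2 change was 2.09 (limma adjusted p = 5.6e-08). This peak also stands only in the authors' IL-33 list, which favours a rise, so these values are descriptions. Of the 3 vehicle values above 0, that of library 2 lies under the level of 3 reads, which was 0.342 to 0.418 tags. The fourth Il1rap peak, 0.5 kb past the start, had 6.79 ± 0.96 and 7.24 ± 3.32 tags (log2 change 0.01, adjusted p = 0.987).

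Il1r1 encodes the signalling receptor of IL-1α and IL-1β, and none of its 8 peaks passed as deposited. The highest, an intronic peak 28.5 kb downstream (chromosome 1, 40294895 to 40295207), held 60.12, 66.05, 50.28 and 64.59 tags with vehicle and 106.7, 46.1, 79.36 and 110.16 with IL-33. All IL-33 libraries but library 2 were above the vehicle libraries (log2 change 0.43, limma adjusted p = 0.508; after median-ratio scaling 0.53, adjusted p = 0.00696). The higher of its promoter peaks, 0.9 kb upstream, had 16.04 ± 3.50 and 16.3 ± 7.60 tags (log2 change -0.07, adjusted p = 0.925; 0.02 after median-ratio scaling).

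Il1r2 encodes the decoy receptor, which binds IL-1 but lacks the signalling domain. The raised peak assigned to it lies 61.8 kb upstream in an intron of Map4k4 (chromosome 1, 40022779 to 40023071). It held 6.91, 7.0, 6.04 and 7.95 tags with vehicle and 32.76, 10.26, 25.99 and 39.43 with IL-33. The groups do not overlap, with IL-33 library 2 nearest to the vehicle range. The mean rose from 6.98 ± 0.78 to 27.1 ± 12.5 tags (3.89-fold; log2 change 1.66, limma adjusted p = 2.73e-05). The next peak, 1.0 kb away, had 5.15 ± 1.68 and 4.60 ± 3.14 tags (log2 change -0.24, adjusted p = 0.749).

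Of the other 17 Il1r2 peaks tested, 15 had a log2 change below 0 (61.8% of all tested peaks did), with a median of -0.41 against -0.14 for all, and none passed as deposited. Among those below 0, the peaks 83.6, 68.9, 60.8 and 5.2 kb upstream stand only in the authors' vehicle list. That favours a fall, so the count and the median are descriptions. The peak 76.5 kb upstream, also in Map4k4, held 15.22, 12.95, 11.74 and 11.02 tags with vehicle and 10.96, 2.83, 5.73 and 10.01 with IL-33, barely without overlap (log2 change -0.82, limma adjusted p = 0.0907; after median-ratio scaling -0.75, adjusted p = 0.0156). A peak 33.3 kb upstream, left out by the filter on low means, had 5.65 ± 2.41 and 1.85 ± 0.58 tags, with overlapping groups. With no filter its log2 change was -1.12 (limma adjusted p = 0.0105). It stands only in the authors' vehicle list, which favours a fall, so these values are descriptions. The promoter peak (40084392 to 40084736) had 18.5 ± 3.02 and 12.5 ± 5.67 tags (log2 change -0.60, adjusted p = 0.277). The highest Il1r2 peak, intronic at 1.6 kb downstream, had 31.3 ± 7.44 and 41.8 ± 18.6 tags (log2 change 0.31, adjusted p = 0.66).

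The genes of the IL-18 receptor, which lie side by side, had called peaks of opposite direction. Il18r1 encodes the chain that binds IL-18, and all 4 of its peaks, intronic, had lower means with IL-33. The peak 13.6 kb downstream (chromosome 1, 40479451 to 40479741) held 16.12, 13.34, 8.32 and 13.25 tags with vehicle and 6.37, 2.59, 2.17 and 8.24 with IL-33. The highest IL-33 library came just under the lowest vehicle library. The mean fell from 12.8 ± 3.24 to 4.84 ± 2.95 tags (-1.32 on the log2 scale, limma adjusted p = 0.00154). The peak 0.6 kb beyond it had 10.1 ± 4.06 and 5.98 ± 1.65 tags (log2 change -0.62, adjusted p = 0.255). The highest Il18r1 peak, at 9.9 kb, had 22.6 ± 5.47 and 14.5 ± 6.16 tags (log2 change -0.66, adjusted p = 0.215; after median-ratio scaling -0.57, adjusted p = 0.0181).

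Il18rap encodes the accessory chain needed for IL-18 signalling. Its promoter peak (chromosome 1, 40515161 to 40515493), over the sequence with the ETS core matches, was the only promoter of the family that passed; of all tested promoter peaks 2.45% rose. It held 8.95, 8.45, 6.50 and 5.44 tags with vehicle and 18.10, 13.56, 11.46 and 30.17 with IL-33, without overlap. The mean rose from 7.34 ± 1.65 to 18.3 ± 8.37 tags (2.50-fold; log2 change 1.13, limma adjusted p = 0.00948). The call was lost when vehicle library 4 (log2 change 1.01, adjusted p = 0.0726) or IL-33 library 4 (0.87, adjusted p = 0.0688) was left out. Both other Il18rap peaks, 13.2 kb upstream and 29.5 kb downstream, had a log2 change of -0.58 (adjusted p = 0.311 for each). The promoter held 22.7% to 37.0% of the gene's tags with vehicle and 55.0% to 68.9% with IL-33.

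Il1rl2 encodes the IL-36 receptor chain, and none of its 9 peaks passed. The highest, intronic and 31.5 kb downstream (chromosome 1, 40356017 to 40356246), held 63.19, 77.81, 56.77 and 72.40 tags with vehicle and 76.87, 18.98, 47.26 and 69.22 with IL-33. The groups overlap, with IL-33 library 2 far below all others (log2 change -0.50, limma adjusted p = 0.402). The intronic peak at 30.2 kb had 8.42 ± 2.57 and 4.36 ± 2.41 tags (log2 change -0.88, adjusted p = 0.0628; after median-ratio scaling -0.83, adjusted p = 0.0146).

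Sigirr encodes an inhibitory member of the family that dampens IL-1, IL-18 and IL-33 signalling. None of its 3 peaks passed, and all 3 had a log2 change below 0, from -0.61 to -0.15. The highest, intronic at a CpG island 8.0 kb downstream (chromosome 7, 141092412 to 141092658), held 52.32, 54.30, 36.60 and 57.33 tags with vehicle and 59.15, 29.36, 40.51 and 55.78 with IL-33 (log2 change -0.15, limma adjusted p = 0.843; 0.001 with quantile normalization). The groups lie on top of each other. The peak at the start of Sigirr, annotated as the transcript end of the neighbouring gene Ano9, had 11.8 ± 4.06 and 9.45 ± 3.50 tags (log2 change -0.29, adjusted p = 0.684).

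At Il33, the ligand gene, an intronic peak between the gene's annotated starts (chromosome 19, 29940312 to 29940620) held 27.63, 31.57, 20.06 and 43.94 tags with vehicle and 89.87, 33.36, 63.18 and 97.23 with IL-33. It lies 5.3 kb before the inner start. The mean rose from 30.8 ± 9.98 to 70.9 ± 29.0 tags (2.30-fold; log2 change 1.12, limma adjusted p = 0.0106), with IL-33 library 2 inside the vehicle range. The call was lost without vehicle library 1 (log2 change 1.08, adjusted p = 0.0514), vehicle library 3 (0.94, adjusted p = 0.0886) or IL-33 library 1 (0.97, adjusted p = 0.06). Within a library the peak held 34.7% to 52.1% of the gene's tags with vehicle and 66.6% to 74.1% with IL-33, ranges that do not overlap. The Il33 promoter peak had 13.5 ± 3.2 and 10.04 ± 6.24 tags (log2 change -0.55, adjusted p = 0.345), and the intronic peak 2.6 kb past the inner start 27.02 ± 1.86 and 23.4 ± 11.8 tags (log2 change -0.36, adjusted p = 0.602).

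**Figure D2:**
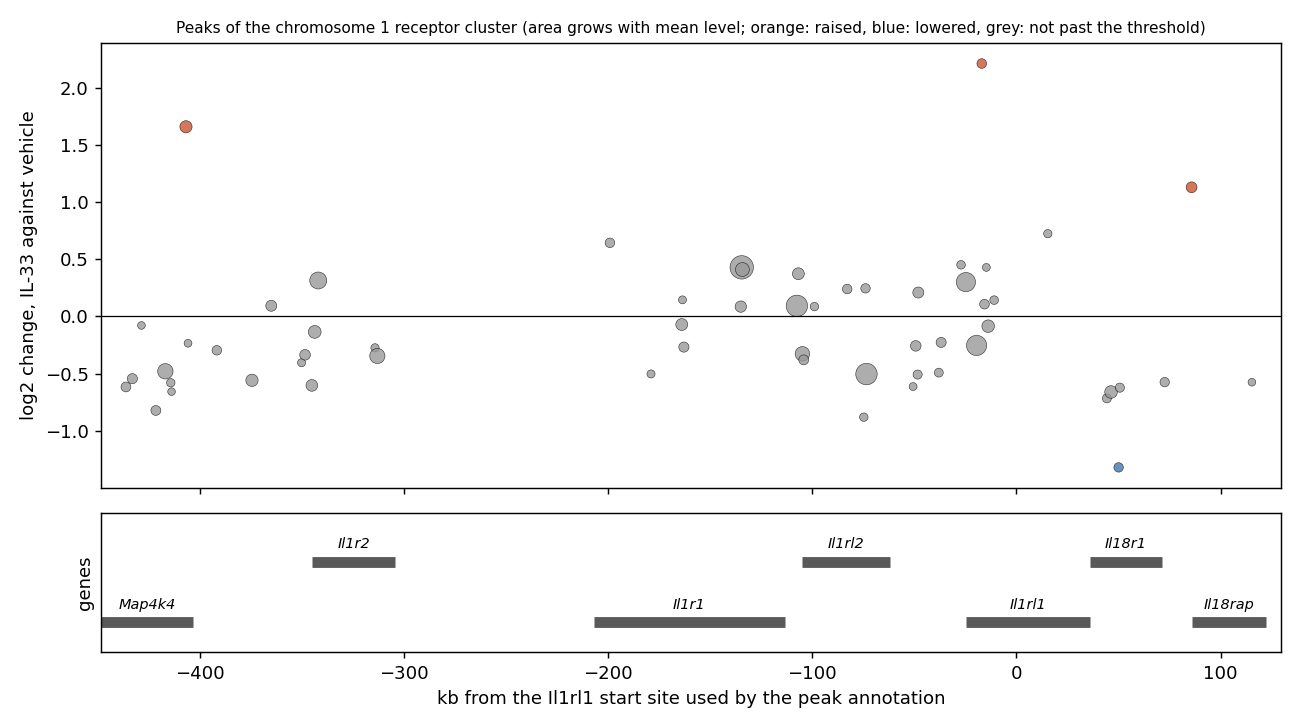
Log2 change of the tested peaks of the chromosome 1 cluster, IL-33 against vehicle, by distance in kb from the outer Il1rl1 promoter window's start site, with gene bodies below. Of 57 tested peaks assigned to the 6 genes, 3 rose (at Il1r2, Il1rl1 and Il18rap) and 1 fell (at Il18r1), each next to peaks that did not pass.

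In the cluster, no peak next to a called peak passed as deposited. After median-ratio scaling the Il18r1 peak at 9.9 kb did. So did the Il1r2 peak 68.9 kb upstream, as lower, beside the raised Il1r2 peak (log2 change -0.58, limma adjusted p = 0.0391). That peak at 68.9 kb stands only in the authors' vehicle list, which favours a fall, so its values are descriptions. Of the 66 tested peaks, 5 had all IL-33 libraries above all vehicle libraries (7.58%, against 8.06% of all tested peaks) and 2 had them all below (3.03%, against 5.89%); 5 of these 7 are the non-overlapping called peaks above. Of the 6 called peaks 5 lay outside promoters. Among all tested peaks, 9.82% of intronic and 10.3% of intergenic ones rose, and 5.5% of intronic ones fell.

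**Figure D3:**
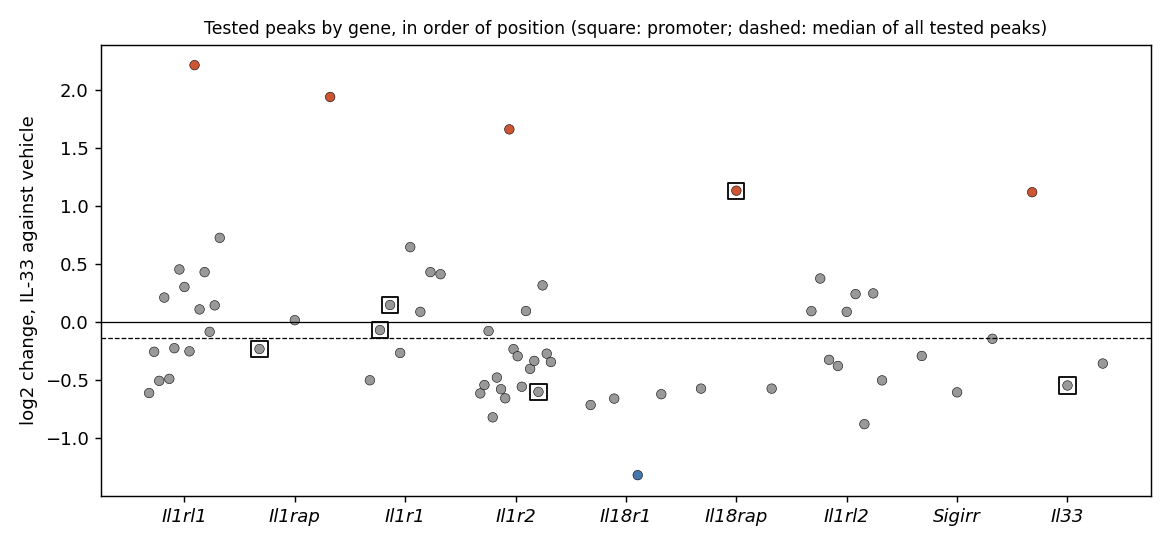
Log2 change of each of the 66 tested peaks, grouped by gene and ordered by position, with promoter peaks in squares, raised peaks in orange, lowered in blue and the median of all tested peaks (-0.14) as a dashed line. The 5 raised peaks stand alone above peaks of the same gene; the 4 Il18r1 peaks all lie below the dashed line.

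Tags summed over all peaks of a gene changed less than the single peaks. Sums were tested in limma as log2(sum + 5) over 16386 genes, with a standard error of 0.28 for every gene; 0 of the 9 genes rose (background 1.46%) and 0 fell (background 1.23%), and at an unadjusted p under 0.05 there was 1 gene, Il18r1. The groups overlapped at all 9, whereas 2.08% of all tested genes had every IL-33 library above and 2.52% every one below the vehicle libraries. The Il18r1 sums were 61.03, 62.48, 39.67 and 58.17 tags with vehicle and 34.80, 17.92, 25.98 and 45.39 with IL-33. The groups overlap through vehicle library 3 and IL-33 library 4 alone (log2 change -0.79, limma adjusted p = 0.123; after median-ratio scaling -0.70, adjusted p = 0.00026). The Il33 sums were 69.08, 73.84, 57.80 and 84.40 with vehicle and 135.0, 45.03, 91.71 and 145.8 with IL-33, and library 2 again lay below all vehicle libraries (log2 change 0.41, adjusted p = 0.773; 0.50 and 0.0122 after median-ratio scaling). Without IL-33 library 2, the Il33 sum rose (log2 change 0.75, adjusted p = 0.00292) and the Il18r1 sum fell (-0.59, adjusted p = 0.0327). Of all tested genes, 7.13% rose and 2.0% fell in that setting. Without IL-33 library 4 the Il18r1 sum also fell (-0.97, adjusted p = 0.0236), as did 3.08% of all tested genes.

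The Il1r1 sums were 152.6, 146.8, 110.8 and 146.6 with vehicle and 209.7, 90.08, 168.3 and 234.4 with IL-33 (log2 change 0.25, limma adjusted p = 0.875; after median-ratio scaling 0.35, adjusted p = 0.00787). The Il1rl1 sums were 230.9, 224.3, 171.2 and 214.4 with vehicle and 265.5, 126.8, 205.6 and 344.1 with IL-33, a log2 change of 0.08 (adjusted p = 0.929) despite the raised peak, which holds few of the gene's tags. With edgeR's TMM scaling the Il1rl1 sum passed as higher (0.25, quasi-likelihood adjusted p = 0.0298). Il1rap, Il1r2, Il18rap, Il1rl2 and Sigirr had log2 changes between -0.25 and 0.21 as deposited, and none of them passed under median-ratio or TMM scaling. With median-ratio scaling, 2 of the 9 sums rose and 1 fell (background 11.8% and 15.6%), and with TMM 3 rose and 1 fell (background 15.0% and 11.5%).

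**Figure D4:**
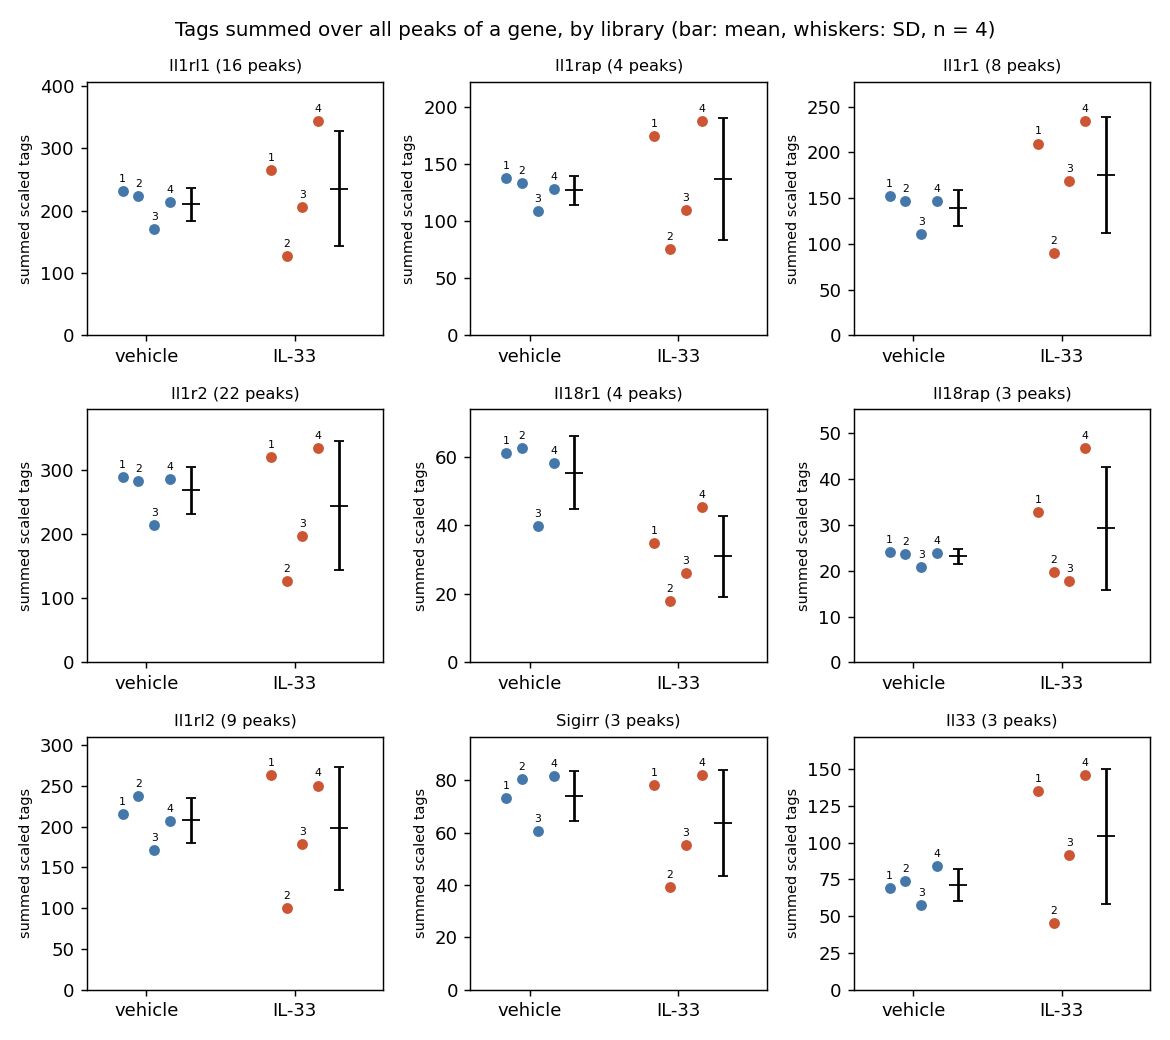
Tags summed over all peaks of each of the 9 genes, in 4 vehicle and 4 IL-33 libraries (points, numbered as in the table's columns), with the mean and SD. The groups overlap in every panel, and IL-33 library 2 is below all vehicle libraries in each, from 17.92 tags at Il18r1 to 126.8 at Il1rl1.

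Per kilobase of peak, so that genes can be set side by side, the vehicle level was highest at Il1rap (139 ± 13.9 scaled tags per kb, n = 4) and lowest at Il18rap (28.2 ± 1.98). Il33 followed Il1rap with 86.1 ± 13.3, then Sigirr with 69.3 ± 8.94, Il1rl2 with 65.2 ± 8.70, Il1r1 with 55.5 ± 7.63, Il18r1 with 47.3 ± 9.06, Il1rl1 with 44.7 ± 5.72 and Il1r2 with 41.7 ± 5.62. From Il33 down to Il1r2 each gene's vehicle range overlapped that of the next, whereas the ranges of Il1rap (119 to 151) and Il33 (69.8 to 102) and those of Il1r2 (33.3 to 45.0) and Il18rap (25.3 to 29.4) did not. With IL-33, Il18r1 had 26.5 ± 10.1 tags per kb, the lowest of the 9 means.

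Apart from a tag count added to each term, the balance of distal and promoter peaks within a library does not depend on how libraries are scaled against each other. It was compared for the 5 genes with a promoter peak. At Il1rap the log2 ratio of tags outside promoters to promoter tags, each with 1 tag added, was -3.48, -3.31, -3.23 and -3.07 with vehicle and -1.92, -1.41, -1.80 and -1.52 with IL-33. It was higher by 1.61 with IL-33, without overlap, which is given as a description: the peaks at 20.1 and 44.6 kb, which carry the difference, are in the peak set only through the authors' IL-33 list. At Il33 it was 2.11, 1.68, 2.22 and 2.16 with vehicle and 3.49, 3.36, 3.14 and 2.74 with IL-33, higher by 1.14 (exact permutation test, two-sided p = 0.0286, the smallest that 4 against 4 allows; adjusted over the 5 genes, p = 0.0476). At Il18rap it moved in the other direction, from 0.71, 0.79, 1.02 and 1.602 with vehicle to -0.28, -1.03, -0.76 and -0.82 with IL-33, a difference of -1.75 (exact permutation p = 0.0286, adjusted p = 0.0476). Its distal peak at 29.5 kb is in the peak set only through the authors' vehicle list, which favours a lower ratio with IL-33. The added tags weigh more where tags are few. With 5 tags added in place of 1, the differences were 1.37 at Il1rap, 0.93 at Il33 and -1.31 at Il18rap. The adjusted p of 0.0476 at Il33 and Il18rap counts the Il1rap ratio among the 5 genes. Without Il1rap, as with peaks of both lists below, adjusted exact permutation p was 0.0571 and did not pass.

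The Il33 and Il18rap ratios contain the called peaks already described, and are no separate support for them. With peaks of both lists only, an alternative chosen after seeing the data, no distal peak of Il1rap remained; the differences were 1.14 at Il33 and -1.73 at Il18rap (exact permutation p = 0.0286 for each, adjusted over the 4 remaining genes 0.0571). With all peaks, Il1rap, Il33 and Il18rap had no overlap between groups, IL-33 library 2 included. At Il1r1 (difference 0.33) and Il1r2 (0.41) the groups overlapped (exact permutation, adjusted p = 0.0571 for each). With any 1 library left out the exact test can no longer pass for any gene, since the smaller group sets its smallest p. The differences then lay between 1.53 and 1.70 at Il1rap, 1.02 and 1.29 at Il33, and -1.90 and -1.56 at Il18rap.

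**Figure D5:**
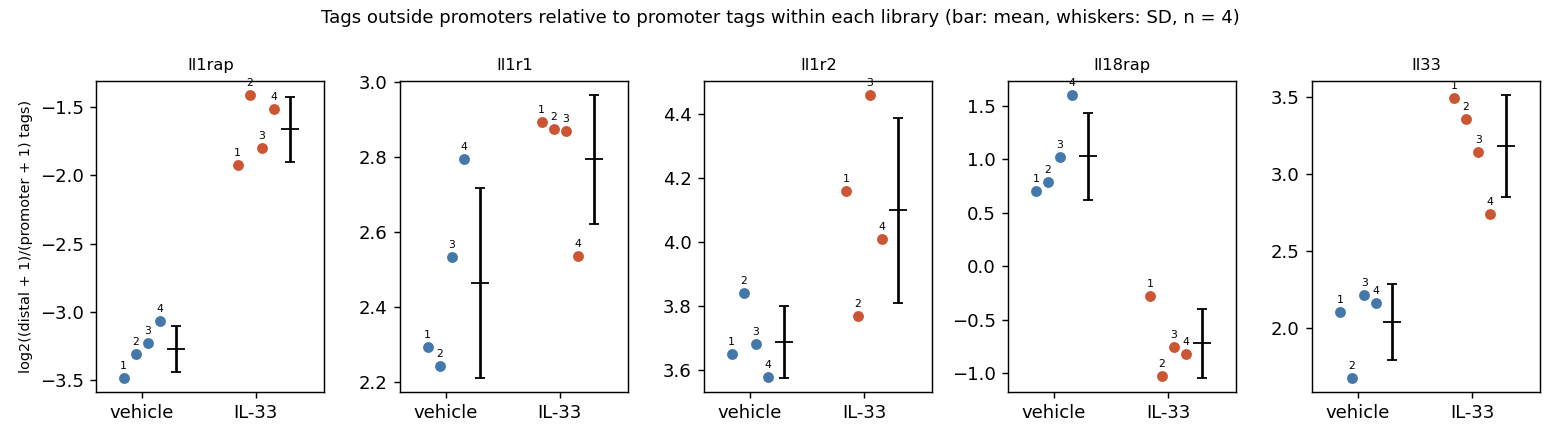
Log2 ratio of tags in peaks outside promoters to tags in promoter peaks for 5 genes, in 4 vehicle and 4 IL-33 libraries (points, numbered as in the table's columns), with the mean and SD; each panel has its own scale. The groups are apart at Il1rap (higher with IL-33 by 1.61), Il33 (1.14) and Il18rap (-1.75) and overlap at Il1r1 and Il1r2.

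Other genes of the pathway were read from a list of ligands, receptor-like genes and signalling genes, of which 18 had peaks. Of their 147 tested peaks, 29 rose (19.7%, against 8.53% of all tested peaks) and 2 fell (1.36%, against 4.99%), with a median log2 change of 0.16. Without IL-33 library 2, 45 of the 147 rose, and the share of all tested peaks that rose was 14.7%. Without IL-33 library 4, 7 of the 147 fell, against 8.36% of all tested peaks. Without vehicle library 1, 2 or 4, 1 of the 147 fell, against 2.65%, 2.62% and 2.89% of all tested peaks. The ligands and antagonists held 16 of the raised peaks, among 33 tested. The gene of IL-1α, Il1a, had 9 raised of 14, that of IL-1β, Il1b, 2 of 9, and Il1rn, the gene of the IL-1 receptor antagonist, 5 of 5. The largest rise was 1.8 kb upstream of Il1a (chromosome 2, 129311610 to 129311857), from 1.19 ± 0.65 to 25.02 ± 5.81 tags (3.49 on the log2 scale, limma adjusted p = 4.57e-22). Its vehicle mean lies under the lowest mean past the filter, 4.3 tags, so the peak passed the filter only through the IL-33 libraries. The same holds for the largest rises at Il1b and Il1rn, with vehicle means of 1.76 and 1.13 tags. That favours a rise, so p-values, counts and sums that include such peaks are descriptions. Summed tags rose at Il1rn, from 21.2 ± 5.07 to 106 ± 35.3 (log2 change 2.04, adjusted p = 4.17e-10), and at Il1a, from 166 ± 33.3 to 394 ± 77.6 (1.23, adjusted p = 0.00125), and fell at 0 genes of the list. Il18 and Il18bp, the genes of IL-18 and of its soluble inhibitor, had no called peak.

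Among the signalling genes, 13 of 113 tested peaks rose (11.5%, against 8.53% of all tested peaks and 9.82% of intronic ones). Of the 113, 2 fell (1.77%, against 4.99%). Irak2 had 3 raised peaks of 15, and Irak3, the gene of the inhibitory kinase IRAK-M, had 2 of 10. The largest rise at Irak3, from a vehicle mean of 0.60 tags, also passed the filter only through the IL-33 libraries. Myd88, the shared adaptor, had none of 3. The largest fall was in an intron of Tab1, the gene of an activator of the kinase TAK1, 16.1 kb downstream (chromosome 15, 80149129 to 80149438), from 19.3 ± 3.13 to 7.68 ± 2.11 tags (-1.23 on the log2 scale, limma adjusted p = 0.00385).

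The 5 genes whose summed tags followed those of Il1rl1 most closely over the 8 libraries, among 6862 genes with at least 5 peaks, were Ms4a1 (Pearson r of log2 sums 0.998), Rps15a-ps6 (0.995), Hacd2 (0.995), Timm8a2 (0.994) and Mfsd1 (0.994). All sums share each library's share of tags in peaks, and 38.7% of the compared genes had an r above 0.9, so these values describe the libraries as much as the genes. Within the family, r with Il1rl1 ran from 0.557 at Il18r1 and 0.831 at Il18rap to 0.972 at Il1rap.

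The sorted population was checked by tags in promoter peaks of marker genes. Of 8 microglial markers 6 had a promoter peak, with sums of 427 to 616 tags in vehicle and 255 to 551 in IL-33 libraries; Csf1r and Aif1 had none. Neuronal markers had 8.65 to 12.8 and 5.22 to 16.7 tags (1 of 5 genes with a promoter peak), and monocyte markers had no promoter peak (0 of 3). The monocyte markers Ccr2, Ly6c2 and Plac8 had 4, 6 and 17 peaks outside promoters, and the microglial Csf1r had 21. A missing promoter peak therefore does not show that a cell type was absent. Astrocyte markers (2 of 4 genes), oligodendrocyte markers (1 of 4) and endothelial markers (2 of 4) reached 33.2 tags at most in any library, and the border macrophage markers (2 of 4) had 45.1 to 67.7 and 29.0 to 81.5. Il1r2 and Il18rap are also expressed by other leukocytes: neutrophil markers had 4.88 to 11.1 tags with vehicle and 5.54 to 20.5 with IL-33 (Mmp8 and S100a8; S100a9, Ly6g and Retnlg without a promoter peak), and their part in the raised peaks was not tested. ST2 is also carried by mast cells and some lymphoid cells: of those markers Cpa3, Kit, Ms4a2 and Cd3e had no promoter peak, and Rora and Gata3 together had 47.5 to 70.5 tags with vehicle and 18.0 to 53.1 with IL-33.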

How the data were processed

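ATAC-seq of 8 libraries (4 vehicle, 4 IL-33) was read from a single table. Per the file headers, the authors counted tags over merged peaks with HOMER on mm10, at most 3 tags per position, and deposited a signal, tags scaled to 10000000 per library. The authors' score of each peak (lowest 540) was not tested. Tools listed in the submitters' processing notes are Bowtie2, HOMER and DESeq2, with no roles given. All values (100%) were whole reads within 0.006 tags, so edgeR 4.0.16 was run on recovered reads as an alternative. Totals were 35842688 to 43857673 tags; precision of a level of 3 reads was 0.342 to 0.418 tags, counting error only. The number of sample columns not used was 0.

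Computed here were limma 3.58.1 (R 4.3.3) fits on log2(tags + 1.155) and log2(sum + 5), empirical Bayes without trend, two-sided, after leaving out the lowest 10% of means; the fits were tested on simulated data. Exact permutation tests compared distal-to-promoter ratios. Library numbers follow the columns' numbers. Replicates were compared by chi-square and none matched within sampling noise.

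The 9 members, the lists and the tests were chosen with earlier results of these data known. For each member the called peaks, the promoter peak and the highest peak were to be named; the intermediate peaks given besides, with called peaks' neighbours, were picked with their values in view. The motif search was planned over whole peaks, which needs a genome, and was run on RefSeq promoter windows instead. Alternatives were other pseudocounts, filters, scalings, edgeR and leaving out each library.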

Additional observations from a re-analysis of the deposited data

Results flagged for a closer look

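Of 60 groups of 4 libraries checked, 4 held a library whose gap to the nearest of the others, over the group's range, was above Dixon's critical value; chance gives such a gap in about 1 of 20 groups. Vehicle library 3 was the lowest of its group in summed tags of Il1r1 (110.8), Il1r2 (213.6) and Il18rap (20.75), and its share of tags in peaks, 20.8%, was the lowest of the vehicle libraries. IL-33 library 4 had the lowest distal-to-promoter log2 ratio of its group at Il1r1 (2.538).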

How the results depend on the processing

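Of 102 values of the 6 called peaks under 17 alternatives, 97 stayed past the threshold in the same direction, 5 no longer passed (Il18rap and Il33, given above) and 0 reversed. Raised peaks of the family numbered 5 as deposited, 11 with median-ratio scaling, 9 with quantile normalization, 11 with equal sums, 12 with edgeR TMM and 4 to 8 when a library was left out, with 8 without IL-33 library 2; all tested peaks raised were 8.53% as deposited, 15.3%, 13.5%, 15.6% and 16.9% under these scalings and 6.67% to 14.7% when a library was left out. Lowered peaks numbered 1 as deposited, 2 with a pseudocount of 0.5, 2 with no filter, 6, 10, 6 and 4 under those 4 scalings and 1 to 3 when a library was left out. Genes raised in summed tags numbered 0 as deposited and 2, 2, 2 and 3 under those scalings (0 to 1 when a library was left out). As deposited 0 were lowered, and 1 under each scaling (0 to 1 when a library was left out). All tested genes raised were 11.8%, 13.1%, 12.4% and 15.0% under those scalings and 0.854% to 7.13% when a library was left out. All tested genes lowered were 15.6%, 12.9%, 14.7% and 11.5%, and 0.366% to 3.08%. On the pathway list 46, 44, 47 and 53 peaks were raised under the 4 scalings (23 to 45 when a library was left out) and 10, 11, 8 and 10 lowered (1 to 7), where all tested peaks lowered were 10.8%, 12.9%, 10.4% and 12.2% (2.62% to 8.36%). The cause of these differences was not tested.

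Values that changed sign were all of uncalled results. The Il1r1 peak at 0.9 kb had log2 changes of 0.019 with median-ratio scaling, 0.034 with equal sums, 0.068 with edgeR TMM, 0.019 with edgeR on total tags and -0.32 to 0.225 when a library was left out. The Sigirr peak at 8.0 kb had 0.001 with quantile normalization. Summed tags had -0.222 (Il1rap), -0.008 (Il1r1) and -0.375 (Il33) with promoter peaks only, and 0.015 (Il1rl2) with edgeR TMM. When a library was left out, ranges that crossed 0 were -0.287 to 0.048 at that Sigirr peak, -0.457 to 0.143 at the Il1rl1 peak at 19.5 kb and -0.403 to 0.036 at the Il1rap promoter. In summed tags they were -0.127 to 0.341 (Il1rl1), -0.153 to 0.267 (Il1rap), -0.402 to 0.054 (Il1r2), -0.02 to 0.374 (Il18rap) and -0.313 to 0.138 (Il1rl2).

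Distal-to-promoter differences kept their direction without any 1 library, between 1.528 and 1.699 at Il1rap, -1.9 and -1.561 at Il18rap and 1.021 and 1.289 at Il33, with adjusted p from 0.0714 to 0.0952, where the smaller group sets the smallest p. With peaks of both lists only, the differences were 1.141 at Il33 and -1.731 at Il18rap (adjusted p = 0.0571, over fewer genes), and Il1rap could give no value. No paired analysis was possible because the table's columns carry no number that the labels tie to a mouse or share between groups. limma's shared spread and the depth of weak peaks limit what 4 libraries per group can show.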
